A study of Drosophila melanogaster with 2 samples.

Results

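The 10 genes described here encode heat shock proteins, other chaperones and their heat-responsive regulator: Hsp22, Hsp23, Hsp26, Hsp27, Hsp68, Hsp83, Hsc70-4, Hsc70-3, Hsf and DnaJ-1. They were chosen by name, with earlier results of these data known. Each matched a single symbol among the 13945 protein-coding genes on the 6 main chromosome arms of the Ensembl annotation of dm6. Occupancy of their loci by CG9876, a predicted paired-class homeodomain protein, was read from chromatin immunoprecipitation with sequencing (ChIP-seq) with an antibody to GFP. The material was whole Drosophila melanogaster embryos of mixed sex, 0 to 24 h old, from a transgenic line that stably carried CG9876 with GFP at the C terminus. There was 1 group, of 2 biological replicates, with no treatment given in the labels. Whole embryos of this age range mix many stages and cell types, so a region cannot be assigned to a cell type, and fewer cells with a bound site cannot be told apart from weaker binding per cell.

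Chaperones hold unfolded or partly folded proteins and help them to reach or regain their shape. After heat, heat shock factor (Hsf) binds heat shock elements, which are inverted repeats of a short GAA-centred unit, and raises transcription of the inducible genes. In Drosophila the promoters of several of these genes carry a paused RNA polymerase and GAGA factor before any heat, and the small heat shock genes of cytological region 67B are also switched on in normal development. The cognate genes, such as the Hsc70 genes and Hsp83, are transcribed without heat.

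The authors deposited 4 dm6 lists of regions: 1 for each replicate, 1 from both replicates combined, and 1 of peaks kept as reproducible. The reproducible list held 2433 peaks with a signal of 85.4 to 1939.5, where signal is the authors' own value for a region. These were the 2433 strongest regions of the combined list. The combined list and both replicate lists held 30000 candidate regions each, down to a signal of 27.2, 15.9 and 14.8, and with q-values of up to 0.91, 0.81 and 0.75. Most candidates lie outside the reproducible list, and a candidate alone is given here as a listed region, not as binding. The scale of the signal is particular to each list, so values were ranked within a list, with rank 1 the strongest, and signals of both replicates were set against each other only at reproducible peaks, beside the same difference over all such peaks. The read depth behind them is unknown.

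Of the 10 genes, 5 had a reproducible summit within 1 kb of a transcription start site (TSS), against 15.8% of all protein-coding genes (2199 of 13945). They were Hsp83, Hsp26, Hsc70-4, Hsp27 and Hsp68, in order of signal. No further gene was added when the gene body was included, where the share of all genes was 18.0% (2509). By the authors' signal, the 5 genes stood at the 86.2, 69.3, 58.2, 49.3 and 20.2 percentile of the 2199 promoter-bound genes, whose median was 137.5 and whose quartiles were 106.4 and 199.4. They were spread through that distribution rather than gathered at its top. The other 5 genes, Hsp22, Hsp23, Hsc70-3, Hsf and DnaJ-1, had listed regions below the reproducible ones only.

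**Figure D1:**
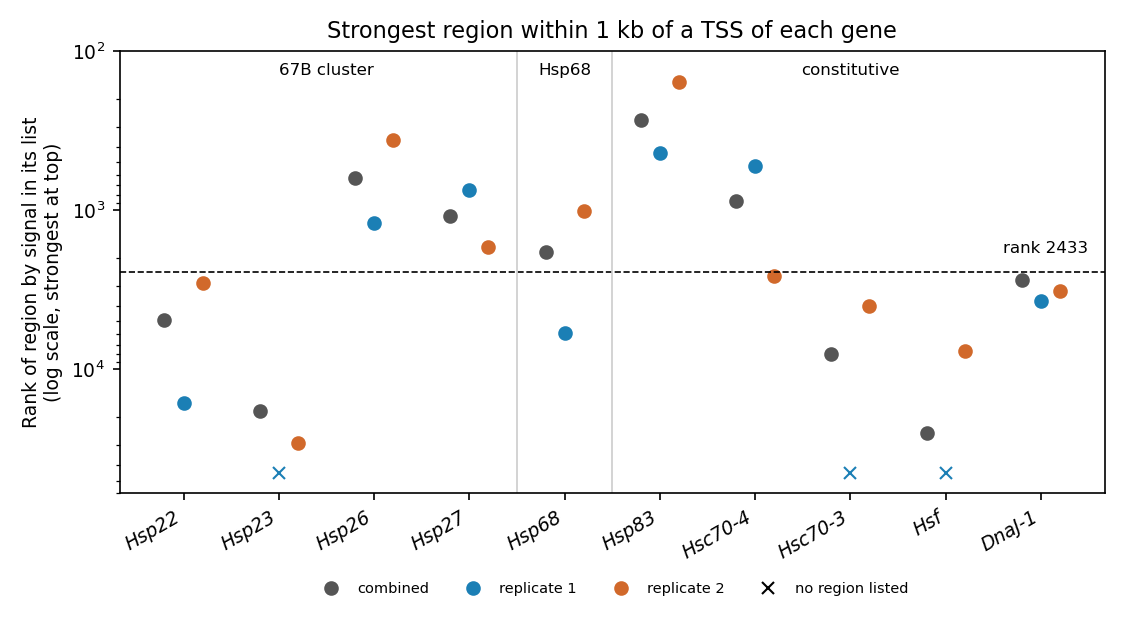
Rank of the strongest region with its summit within 1 kb of a TSS of each gene, on a log axis with the strongest at the top; grey, blue and orange points are the combined, replicate 1 and replicate 2 lists, crosses mark no region listed and the dashed line is rank 2433. Hsp26, Hsp27 and Hsp83 lay above the line in all 3 lists, Hsp68 and Hsc70-4 lay above it in the combined list and in 1 replicate each, and the other 5 genes lay below it throughout.

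The promoter sequences of the genes on which the results turn are given here with the heat shock element letters in capitals, so that each summit can be set against them. A pair of inverted units, NGAAN next to NTTCN in either order, was searched on both strands. The sequences are the 250 bases before the TSS, 5′ to 3′ on the strand of the gene, read from the RefSeq assembly of dm6, and none of them overlaps an annotated exon. They come from the regulated small heat shock genes Hsp26 (chr3L:9377428-9377677, minus strand), Hsp27 (chr3L:9383813-9384062, plus strand) and Hsp23 (chr3L:9381632-9381881, plus strand), from inducible Hsp68 (chr3R:24057311-24057560, minus strand) and from constitutive Hsc70-4 (chr3R:15242437-15242686, plus strand).
Hsp26: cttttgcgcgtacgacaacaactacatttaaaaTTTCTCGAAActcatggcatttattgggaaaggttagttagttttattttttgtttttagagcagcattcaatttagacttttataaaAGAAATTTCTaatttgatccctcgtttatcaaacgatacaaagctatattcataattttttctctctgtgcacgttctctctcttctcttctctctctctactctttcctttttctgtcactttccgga
Hsp27: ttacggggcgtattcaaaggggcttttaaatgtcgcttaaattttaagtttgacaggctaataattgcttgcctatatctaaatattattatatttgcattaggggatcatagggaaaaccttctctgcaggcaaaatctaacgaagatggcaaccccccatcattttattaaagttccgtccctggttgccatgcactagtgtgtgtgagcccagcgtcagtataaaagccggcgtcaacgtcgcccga
Hsp23: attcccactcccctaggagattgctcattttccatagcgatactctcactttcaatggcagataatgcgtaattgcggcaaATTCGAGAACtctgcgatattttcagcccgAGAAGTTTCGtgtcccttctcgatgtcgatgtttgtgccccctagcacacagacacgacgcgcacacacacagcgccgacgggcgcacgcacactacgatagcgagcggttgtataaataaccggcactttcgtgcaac
Hsp68: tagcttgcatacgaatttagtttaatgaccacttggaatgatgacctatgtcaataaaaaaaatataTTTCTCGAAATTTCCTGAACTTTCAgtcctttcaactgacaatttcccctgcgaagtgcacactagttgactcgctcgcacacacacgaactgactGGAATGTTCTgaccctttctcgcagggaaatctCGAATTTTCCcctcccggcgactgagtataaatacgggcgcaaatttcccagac
Hsc70-4: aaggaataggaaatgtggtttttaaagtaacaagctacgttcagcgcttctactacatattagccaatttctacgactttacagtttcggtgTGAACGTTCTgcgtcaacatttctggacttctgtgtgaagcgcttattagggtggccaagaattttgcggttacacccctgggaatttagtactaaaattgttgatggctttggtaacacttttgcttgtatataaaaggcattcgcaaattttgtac

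Hsp26 and Hsp23 held 2 unit pairs each in these windows, beginning 217 and 129 bases before the TSS in Hsp26 and 169 and 139 bases before it in Hsp23. Hsp68 held 6 overlapping or separate pair matches, of which 4 formed 1 array that begins 183 bases before the TSS. Hsc70-4 held 1 pair, beginning 158 bases before the TSS, and Hsp27 held none in this window. A match is a run of letters and not a measured site of Hsf.

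The 67B region holds the small heat shock genes, whose products are chaperones that keep unfolded proteins from aggregating without using ATP. From the start of Hsp22 to the end of Hsp27 it spans 12764 bp (chr3L:9372931-9385694) and holds 7 protein-coding genes. Within it lay 2 reproducible peaks, against 8 regions of the combined list, 7 of replicate 1 and 8 of replicate 2. Both reproducible peaks were at promoters of the listed genes, 1 at Hsp26 and 1 at Hsp27.

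Hsp26 (FBgn0001225, chr3L:9376418-9377427, minus strand) encodes a small heat shock protein made in the germ line as well as after heat. Its reproducible peak (chr3L:9377328-9377697) had its summit 86 bp upstream of the nearest TSS, with a signal of 181.3 in the combined list (rank 627). The same region had a signal of 67.03 in replicate 1 (rank 1210) and 115.6 in replicate 2 (rank 364). It was among the 2433 strongest regions of each list. The unit pair 129 bases before the upstream TSS had its centre 38 bp from the summit. Another pair, with its centre 93 bp from the summit, lay between the 2 TSSs of Hsp26, just downstream of the upstream TSS. Between them, 6 matches of GAGAG, the core that GAGA factor recognises, some of them overlapping, lay 20 to 53 bp from the summit on the TSS side. These distances are from the combined summit. The summits of replicate 1 and replicate 2 lay further from the upstream TSS, 104 and 123 bp before it, and so further from the GAGAG matches.

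Beside that peak Hsp26 had weaker listed regions in all 3 candidate lists. In the coding exon, 571 bp downstream of the downstream TSS, the signal was 52.1 in the combined list (rank 6232), 18.8 in replicate 1 (rank 20627) and 35.4 in replicate 2 (rank 4279). At 894 bp upstream of the upstream TSS, in the coding exon of the neighbouring gene Hsp67Ba, it was 41.0 (rank 11532), 19.9 (rank 17778) and 19.1 (rank 18408). Neither flanking region was reproducible.

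Hsp27 (FBgn0001226, chr3L:9384063-9385694, plus strand) encodes a small heat shock protein that is also controlled by ecdysone. Its reproducible peak (chr3L:9383712-9384081) had its summit 166 bp upstream of the TSS. The signal was 136.1 in the combined list (rank 1094), 88.1 in replicate 1 (rank 746) and 55.1 in replicate 2 (rank 1707). Here replicate 1 gave the stronger rank, the reverse of Hsp26. The coding exon held a listed region 616 bp downstream, at 42.8 (rank 10272), 20.02 (rank 17502) and 21.0 (rank 14886) in the combined, replicate 1 and replicate 2 lists.

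Hsp22 (FBgn0001223, chr3L:9372931-9374964, plus strand) encodes a mitochondrial small heat shock protein. It had no reproducible peak, and the nearest was that of Hsp26, 3516 bp away. A region 571 bp upstream of its TSS had a signal of 57.8 in the combined list (rank 4922, q = 0.0745) and 42.9 in replicate 2 (rank 2876), and was not listed in replicate 1. That summit also lay 137 bp from the TSS of Hsp67Bc and 362 bp from that of CG4456 (Hsp67Bb). These neighbouring genes share the interval with Hsp22, so the region cannot be given to 1 of them. In the 5′ untranslated region, 413 bp upstream of the second TSS of Hsp22, a weaker region reached 36.7 (rank 15216) and 24.9 in replicate 2 (rank 9831). Replicate 1 listed only a region in the coding exon, at 20.6 (rank 16166).

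Hsp23 (FBgn0001224, chr3L:9381882-9382765, plus strand) encodes a cytoplasmic small heat shock protein. The nearest reproducible summit was that of Hsp27, 2015 bp from the TSS of Hsp23, which makes Hsp23 the first gene of the 10 beyond the 1 kb limit, while Hsp68, at 955 bp, was the last within it. Its only listed region lay in the coding exon, 247 bp downstream of the TSS. The signal there was 34.0 in the combined list (rank 18294, q = 0.701) and 15.1 in replicate 2 (rank 28880), and replicate 1 listed none. The 2 heat shock element pairs printed above for Hsp23 therefore had no listed region over them in any list.

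**Figure D2:**
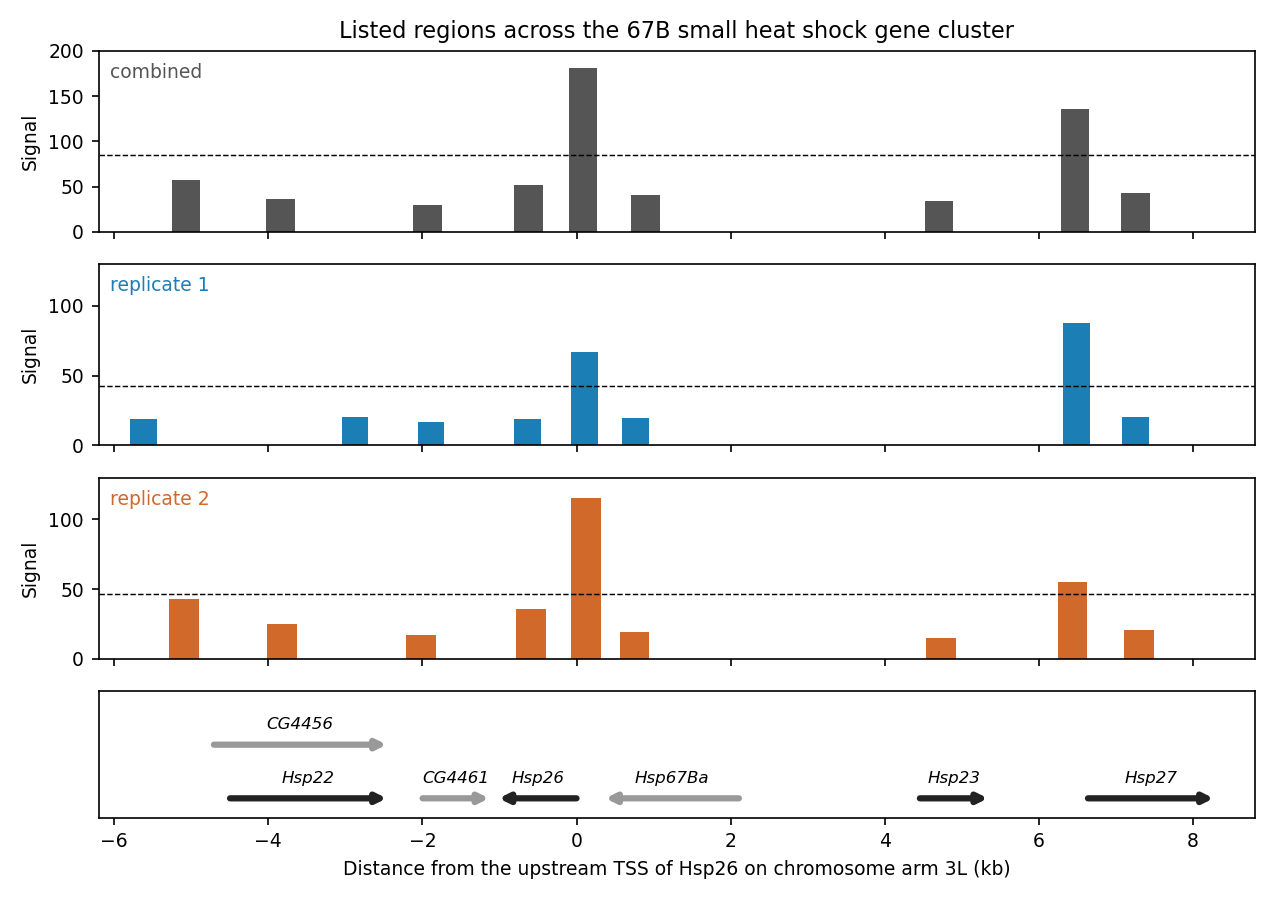
Signal of every listed region over the 67B cluster against distance from the upstream TSS of Hsp26 in kb, in the combined, replicate 1 and replicate 2 lists; bar width is region width, dashed lines mark the signal at rank 2433 of each list, and arrows show genes (black, the 4 listed members; grey, their neighbours). Only the regions at Hsp26 and Hsp27 lay above the line, at 181.3 and 136.1 in the combined list, and did so in all 3 lists.

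The other genes of the cluster had no reproducible promoter peak. CG4461 had a strongest listed promoter region of 29.2, 20.6 and 17.4 in the combined, replicate 1 and replicate 2 lists. The 20.6 of replicate 1 is the region in the coding exon of Hsp22. In the coding exon of CG4461 itself, replicate 1 listed a weaker region of 16.7 (rank 26922). Hsp67Ba, which lies between Hsp26 and Hsp23, had no region within 1 kb of its TSS in any list. The reproducible peaks of the cluster were thus at single promoters. The listed regions are narrow, with a median width of 370, 350 and 384 bp in the combined, replicate 1 and replicate 2 lists. Occupancy over the whole interval could not be read from them.

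Hsp68 (FBgn0001230, chr3R:24055080-24057310, minus strand) encodes a heat-inducible chaperone of the HSP70 class. Its reproducible peak (chr3R:24058080-24058449) had a signal of 101.2 in the combined list (rank 1842), 28.97 in replicate 1 (rank 5918, q = 0.210) and 70.8 in replicate 2 (rank 1015). Only replicate 2 put it among the 2433 strongest. The summit was 955 bp upstream of the TSS of Hsp68 and 22 bp upstream of the TSS of SMC1, a cohesin subunit gene on the opposite strand. By the nearest TSS the peak belonged to SMC1, and Hsp68 was no longer counted as bound.

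Just upstream of its own TSS Hsp68 had 1 listed region, at 139 bp, found in replicate 2 alone with a signal of 23.8 (rank 10989, q = 0.236). The array of heat shock element units printed above lay in that interval and not under the reproducible summit. Coding exon regions were listed 643 bp downstream, at 36.7 in the combined list (rank 15156) and 29.3 in replicate 2 (rank 6619), and 1565 bp downstream, at 38.9, 17.4 and 15.4 in the combined, replicate 1 and replicate 2 lists. The 120 bases before the TSS of SMC1 (chr3R:24058167-24058286, plus strand), which hold the summit, are shown with TAAT, the core recognised by many homeodomain proteins, in capitals.
SMC1: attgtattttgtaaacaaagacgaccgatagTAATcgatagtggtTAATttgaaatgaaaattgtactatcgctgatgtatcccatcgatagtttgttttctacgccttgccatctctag

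Hsp83 (FBgn0001233, chr3L:3192969-3197059, plus strand) encodes the cytosolic HSP90, which matures kinases and nuclear receptors, and is transcribed strongly without heat. It had the highest signal of the 10 genes in the combined list and in each replicate. Its reproducible peak (chr3L:3193050-3193205), 156 bp wide, reached 267.9 in the combined list (rank 271), 114.1 in replicate 1 (rank 438) and 159.6 in replicate 2 (rank 156). The summit was 95 bp upstream of the downstream TSS, inside the 5′ untranslated region of the transcript that begins at the upstream TSS. A heat shock element pair had its centre 30 bp from the summit, within these 30 bases (chr3L:3193137-3193166, plus strand), which run from 79 to 50 bases before the downstream TSS.
Hsp83: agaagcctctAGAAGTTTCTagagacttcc

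The body of Hsp83 also carried listed regions, none of them reproducible. An intronic region 1088 bp downstream of the TSS had a signal of 61.4 (rank 4337), 34.3 (rank 3823) and 23.5 (rank 11346) in the combined, replicate 1 and replicate 2 lists. Coding exon regions followed at 1791 bp (40.8) and 2062 bp (34.8) in the combined list, at 1816 bp in replicate 1 (23.5) and at 2021 bp in replicate 2 (19.3). A further coding region, at 2823 bp, had 51.9 in the combined list and 35.4 in replicate 1, and was not listed in replicate 2. A region of 50.4, 24.8 and 19.8, upstream of the gene, had its summit 17 bp from the TSS of the neighbouring gene CG14965. The peak summit itself lay 630 bp from that TSS.

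Hsc70-4 (FBgn0266599, chr3R:15242687-15246614, plus strand) encodes the main cytosolic HSC70, which folds new proteins and uncoats clathrin vesicles. Its reproducible peak (chr3R:15242371-15242740) had its summit 131 bp upstream of the TSS, at 152.7 in the combined list (rank 880). Replicate 1 gave 104.6 (rank 531) and replicate 2 gave 45.1 (rank 2593). Replicate 2 thus placed it just below the 2433 strongest. The heat shock element pair printed above, which begins 158 bases before the TSS, had its centre 23 bp from the combined summit. The summits of replicate 1 and replicate 2 lay 150 and 66 bp upstream of the TSS, so in replicate 2 the pair lay further from the summit. The TSS of tefu, the ATM kinase gene on the opposite strand, lay 320 bp from the summit.

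In the coding exons of Hsc70-4 the combined, replicate 1 and replicate 2 lists gave 46.7 (rank 8256), 20.2 (rank 17052) and 27.9 (rank 7470) at 665 bp from the nearest TSS. They gave 47.6 (rank 7867), 27.1 (rank 7171) and 15.3 (rank 28472) at 1509 bp. A further region, in an intron 121 bp from a TSS, was in the combined list alone, at 27.6 (rank 29020).

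Hsc70-3 (FBgn0001218, chrX:11801696-11807117, minus strand) encodes BiP, the HSP70 of the endoplasmic reticulum. Its nearest reproducible summit was 11463 bp away, by the gene rudhira. Of its 4 TSSs, the strongest combined region lay 40 bp upstream of 1, in an intron of the longer transcripts, at 47.4 (rank 7967, q = 0.257), with 33.6 in replicate 2 (rank 4818) and none in replicate 1. A region 528 bp upstream of the gene had 31.7 (rank 21509) in the combined list and 36.6 (rank 3977) in replicate 2. Replicate 1 had no region within 1 kb of a TSS of Hsc70-3, and its 2 regions at the gene lay in a coding exon, at 17.5 (rank 24288), and in the 3′ untranslated region, at 19.4 (rank 19081). The latter was also listed at 43.2 in the combined list (rank 10073) and 20.8 in replicate 2 (rank 15183).

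DnaJ-1 (FBgn0263106, chr3L:5750029-5752189, minus strand) encodes a J protein of the HSP40 class, which hands substrates to HSP70. Among the 10 it was the gene nearest below the reproducible list: its region 107 bp upstream of the TSS had a signal of 78.9 in the combined list (rank 2739, q = 0.00383), against 85.4 for the lowest reproducible peak. Both replicates listed it, at 34.6 (rank 3743) and 40.5 (rank 3234). The ranks were close in all 3 lists. The 250 bases before its TSS (chr3L:5752190-5752439, minus strand) are shown for their match of the DNA replication-related element (DRE), TATCGATA. It was the only match among the promoter windows searched, 1 for each of the 10 genes. It is in capitals, beginning 72 bases before the TSS, with its centre 39 bp from the combined summit. The summits of replicate 1 and replicate 2 lay 113 and 37 bp upstream of the TSS.
DnaJ-1: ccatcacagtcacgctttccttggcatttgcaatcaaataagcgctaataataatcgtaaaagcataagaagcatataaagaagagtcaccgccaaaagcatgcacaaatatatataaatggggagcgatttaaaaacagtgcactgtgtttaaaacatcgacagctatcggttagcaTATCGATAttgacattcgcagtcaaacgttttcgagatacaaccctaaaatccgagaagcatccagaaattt

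The coding exon of DnaJ-1 held listed regions in all 3 candidate lists. They had 52.7, 21.7 and 26.1 at 1405 bp from the TSS and 46.7, 23.9 and 25.4 at 629 bp, in the combined, replicate 1 and replicate 2 lists. A region 946 bp upstream, 162 bp from the TSS of the neighbouring gene Usp47, had 43.6 in the combined list and 27.6 in replicate 2. The nearest reproducible summit, by the gene scny, was 19121 bp from DnaJ-1.

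Hsf (FBgn0001222, chr2R:18130303-18134634, minus strand) encodes the transcription factor that drives the heat response. It had the lowest strongest signal of the 10 genes in the combined list. The only listed region lay in an intron 466 bp downstream of the TSS, at 29.6 in the combined list (rank 25247, q = 0.839) and 27.6 in replicate 2 (rank 7667), with none in replicate 1. The nearest reproducible summit was 7189 bp away, by the gene pAbp, with a signal of 88.9.

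**Figure D3:**
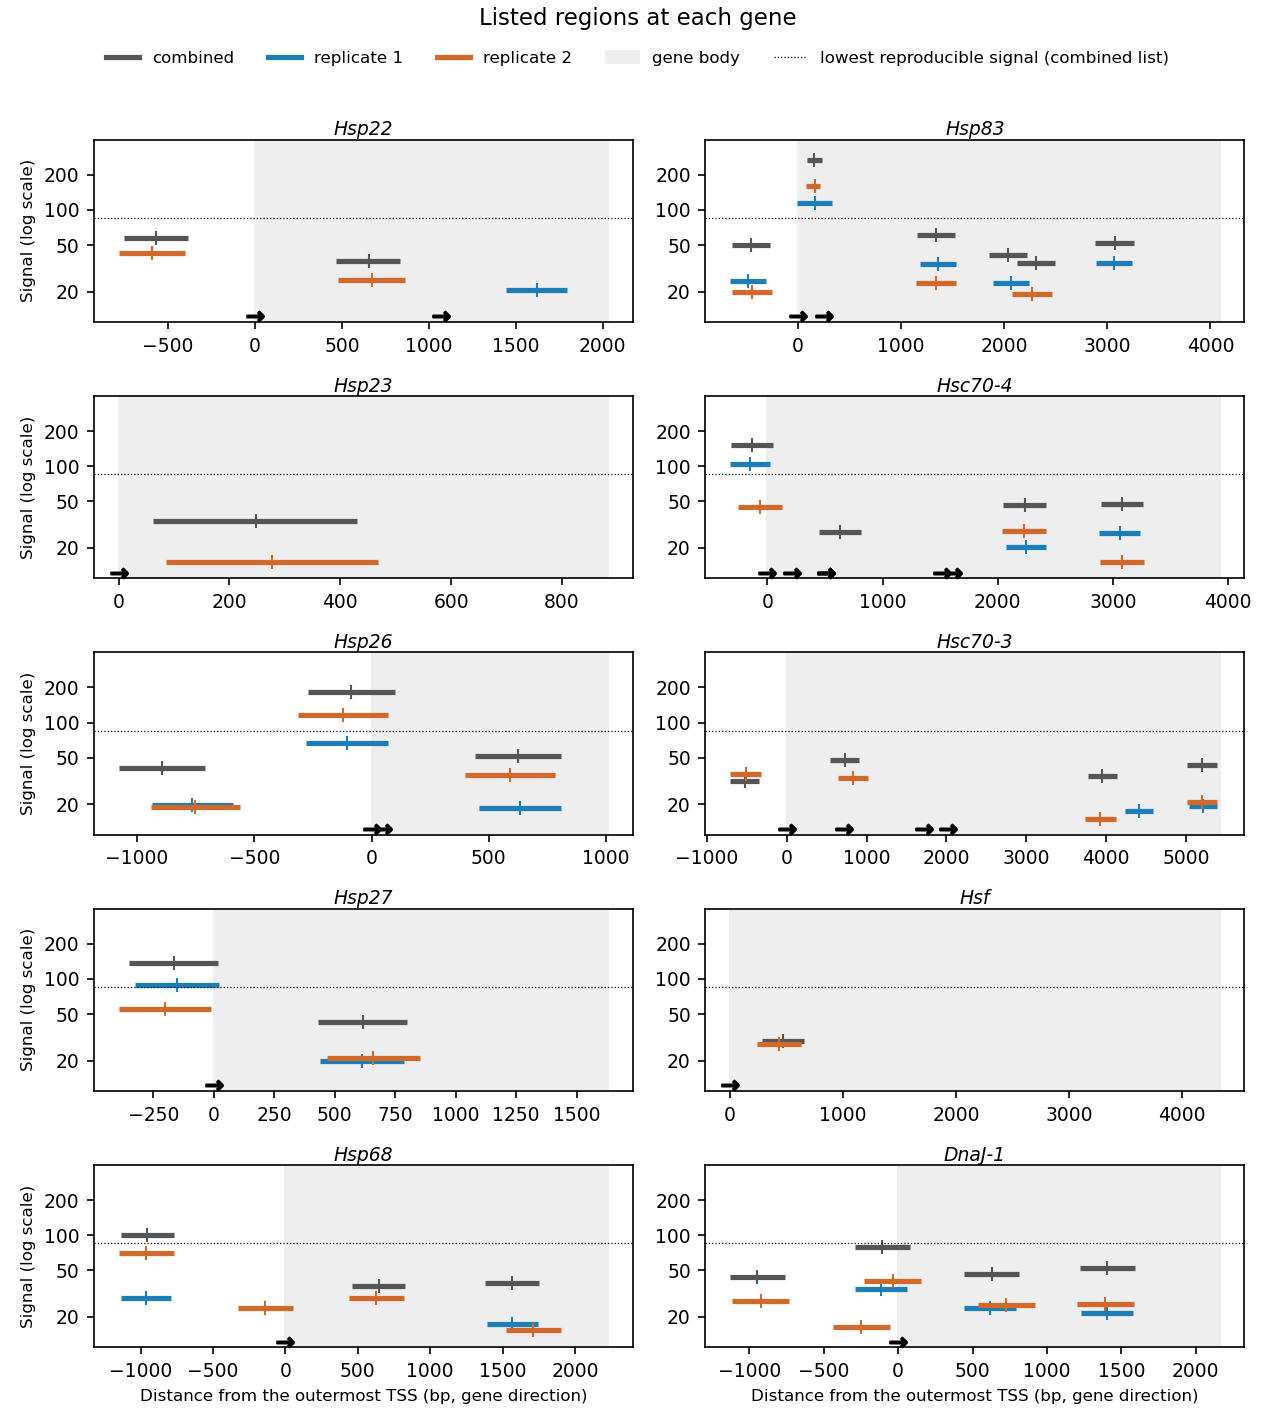
Listed regions at each of the 10 genes: signal on a log axis against distance from the outermost TSS in bp along the gene, with grey, blue and orange bars for the combined, replicate 1 and replicate 2 lists, ticks at summits, arrows at TSSs and shading for the gene body. The dotted line is the lowest reproducible signal on the scale of the combined list, 85.4, and 5 grey bars lie above it, all of them outside the coding exons.

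The replicates were compared at the 5 reproducible peaks as log2 of the replicate 2 signal over the replicate 1 signal. Over the 2363 reproducible peaks matched in both replicates this difference had a median of -0.09 and an SD of 0.61. It was 0.79 at Hsp26, 0.48 at Hsp83 and -0.68 at Hsp27, which deviated from that median by 1.43, 0.94 and -0.96 SD. Hsp68, at 1.29, and Hsc70-4, at -1.21, deviated further, by 2.25 and -1.83 SD. By the same signals, the 2433 strongest regions of replicate 1 held promoter regions of Hsp26, Hsp27, Hsp83 and Hsc70-4 (15.8% of all genes), and those of replicate 2 held Hsp26, Hsp27, Hsp83 and Hsp68 (15.3% of all genes). Among regions in the strongest 2433 of both replicates, 3 of the 10 genes remained, Hsp26, Hsp27 and Hsp83, against 11.6% of all genes (1616).

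Candidate regions covered the genes more widely than the reproducible peaks. All 10 genes had a combined region within 1 kb of a TSS, where 61.3% of all genes did, and 69.8% did when the gene body was included. In the gene body or within 1 kb, replicate 1 listed 8 of 10, without Hsp23 and Hsf, against 68.5%, and replicate 2 listed 10 of 10 against 68.6%. These shares of all genes are high, so a candidate region alone says little about the 10 genes. The genes carried 30 combined regions, 21 of replicate 1 and 29 of replicate 2 in all. Their strongest combined regions ran from 29.6 to 267.9, with a median of 90.1.

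Regions with a summit in a coding exon of the gene were listed for 8 of the 10 genes in the combined list, all but Hsp22 and Hsf, against 40.8% of all genes (5686). Each replicate listed at least 1 such region, not always the same one, for 7 of the 10, which leaves out Hsp23 as well, against 22.6% of all genes (3156). At Hsc70-3 the coding regions of the replicates did not overlap. The 10 genes were about as long as others, at a median of 2196 bp against 2166 bp, with a longer coding part, at 1453.5 bp against 1185 bp. None of these coding regions was reproducible. The part of coding length in the counts was not tested.

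The 67B genes were set against the genes listed as constitutive: Hsp83, Hsc70-4, Hsc70-3, Hsf and DnaJ-1. Hsp68, listed as inducible and outside the cluster, was left out. The class names come from the gene list and no response to heat was measured, so a gene listed as constitutive may also respond to heat. Of the 67B genes 2 of 4 had a reproducible promoter peak, and of the constitutive genes 2 of 5, beside 15.8% of all genes. Without replicate 1, and among regions strong in both replicates, the constitutive count was 1 of 5 (Hsp83) and the 67B count stayed at 2. The shares of all genes in these 2 settings were 15.3% and 11.6%. The mean log2 signal of the strongest combined region was 6.38 ± 1.11 (SD over genes, n = 4) in the 67B genes and 6.42 ± 1.27 (SD over genes, n = 5) in the constitutive genes. The difference, 67B minus constitutive, was -0.03. It was -0.16 in replicate 1, with Hsp23 and Hsf set to the lowest signal of that list, and -0.13 in replicate 2. The mean over replicates was -0.15 ± 0.02 (SD, n = 2), and an exact two-sided permutation of signs cannot give a p below 0.5 with 2 replicates. Genes are not replicates, and no test was made over them. Without Hsp83 the combined difference was 0.38, so its sign turned, and without Hsf it was -0.41, with the same sign. The other genes of the classes were not left out in turn.

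Each class thus held both kinds of gene. Hsp26 and Hsp27 stood with Hsp83 and Hsc70-4 above rank 2433, and Hsp22 and Hsp23 with Hsc70-3, Hsf and DnaJ-1 below it. The order of combined signal from the top was Hsp83, Hsp26, Hsc70-4, Hsp27, Hsp68, DnaJ-1, Hsp22, Hsc70-3, Hsp23 and Hsf. Below Hsp83, the order changed at several places between the replicates. Replicate 1 ranked Hsc70-4 and Hsp27 above Hsp26, and DnaJ-1 above Hsp68. Replicate 2 ranked Hsp68 above Hsp27 and Hsc70-4, Hsp22 above DnaJ-1, and Hsf above Hsp23.

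Short motifs were counted within 100 bp of the summit of the strongest combined promoter region of each gene, on both strands. The promoter window of each of the 10 genes was taken at 1 TSS, the one nearest that summit. Other TSSs of these genes were not searched, while the share of all promoters is over 19253 TSSs. The heat shock element pair was present at 3 of the 10, Hsp26, Hsp83 and Hsc70-4, all of them reproducible, against 10.6% of all reproducible summits, 8.51% of the combined candidates and 15.7% of all promoters (250 bases before to 50 after the TSS). Hsp27 and Hsp68, also reproducible, had none there. A run of 3 alternating units was at no summit of the 10 and in 1 of their promoters, that of Hsp68, against 0.421% of all promoters. In the promoter window the pair was in 6 of the 10 genes: Hsp23, Hsp26, Hsp68, Hsp83, Hsc70-4 and DnaJ-1. Of these, Hsp23 and DnaJ-1 had no reproducible peak, and that of Hsp68 lay away from its pairs.

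Since 5 of the 10 summits were candidates only, the shares of reproducible summits and of combined candidates are both given. GAGAG was at 1 of the 10 summits, that of Hsp26, against 25.7% and 26.8%, and in 3 of the 10 promoter windows, against 33.2% of all promoters. The TATA box letters TATAAA were at 3 summits, Hsp26, Hsp83 and DnaJ-1, against 25.6% and 13.3%, and in 8 promoter windows, against 42.3%. The Initiator letters TCAGT were at 3 summits, Hsp83, Hsc70-3 and Hsf, against 34.2% and 29.3%, and in 6 promoter windows, against 52.1%. The counts for GAGAG and the Initiator were thus near or below these shares. DRE was at DnaJ-1 alone, against 6.04% and 1.52%, and Ohler motif 1, GGTCACACT, was at none, against 2.38% and 0.967%.

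TAAT was at all 5 reproducible summits, against 87.2% of all reproducible summits, and at 1 of the other 5, that of DnaJ-1, against 67.4% of the combined candidates. It was in all 10 promoter windows, against 91.4% of all promoters. The site of a paired-class dimer, TAAT and ATTA with 3 bases between them, was at none of the 10 summits and in none of their promoters, against 1.52% of reproducible summits and 2.73% of all promoters. Such short letters occur often, and their presence here is a description of the windows only.

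The other genes of the chaperone network were taken from a list of 54 in 9 classes, of which 51 matched a gene. Of the 51, 6 had a reproducible promoter peak (11.8%), against 15.8% of all genes. A combined candidate within 1 kb of a TSS was listed for 32 of the 51, against 61.3% of all genes. The 10 genes described above, at 5 of 10, and this wider list, at 6 of 51, thus lay on either side of the share over all genes. Both lists were chosen with earlier results of these data known, so the difference may reflect that choice. No test was made of it.

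The 6 were spread over 5 classes. Among J proteins, mrj had 408.2 in the combined list, the highest signal of any chaperone gene examined, with 185.1 in replicate 1 and 225.6 in replicate 2. P58IPK, a J protein of the endoplasmic reticulum, had 138.7, 91.7 and 43.9. The mitochondrial HSP70 gene Hsc70-5 had 166.8, 103.9 and 54.9. CG11267, of the HSP10 class that caps the mitochondrial chaperonin, had 160.0, 78.1 and 81.7, and p23, an HSP90 co-chaperone, had 108.5, 44.2 and 62.3. CCT8, a subunit of the cytosolic chaperonin, had 101.1, 50.1 and 46.4, with its summit 478 bp from the TSS of CCT8 and 50 bp from that of CG30349. All 6 genes were listed in both replicates. In replicate 2, P58IPK (rank 2736) and CCT8 (rank 2457) lay outside the 2433 strongest regions.

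The remaining classes had no reproducible promoter peak. They were the class listed as other small heat shock genes, which took in CG4456 by its name Hsp67Bb (0 of 7), and the other HSP90 genes (0 of 2). The class of Cnx99A, Calr and Pdi, of the endoplasmic reticulum (0 of 3), and the heat-inducible Hsp70 genes (0 of 6) had none either. P58IPK, also of the endoplasmic reticulum, was counted with the J proteins. The Hsp70 copies Hsp70Aa, Hsp70Ab, Hsp70Ba, Hsp70Bb, Hsp70Bbb and Hsp70Bc had no promoter region in any of the 3 candidate lists. They are near-identical, and how reads that map to several copies were treated is not given in the sources used here, so their absence from the lists is uncertain. Hsp68, of the same class, had a listed region just upstream of its own TSS in replicate 2 alone.

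**Figure D4:**
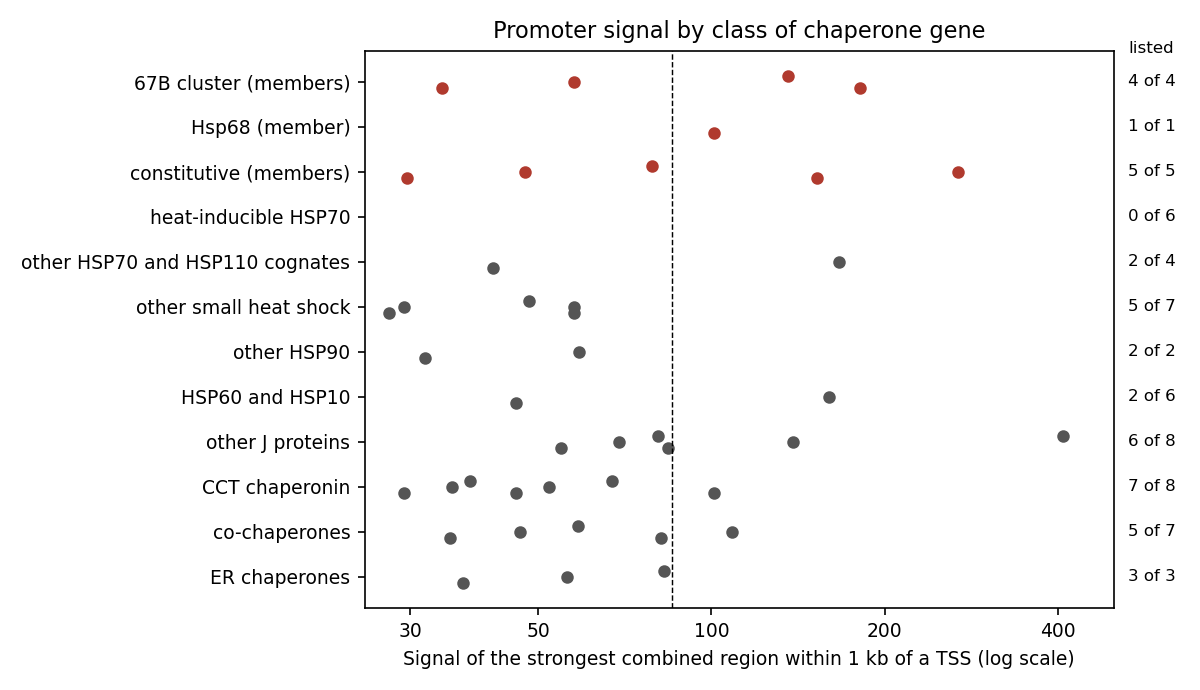
Signal of the strongest combined region within 1 kb of a TSS, on a log axis, for each gene of the 10 (red) and of the other chaperone classes (grey), with the number of genes with a listed region beside each class; points are jittered vertically. The dashed line is the lowest reproducible signal, 85.4, above which lie 5 of the 10 genes and 6 of the 51 others, with no point for the heat-inducible Hsp70 genes.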

How the data were processed

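ChIP-seq of GFP-tagged CG9876 was measured in 2 biological replicates of 1 group, as numbered in the labels. The authors deposited narrowPeak lists in dm6 and dm3, and only the 4 dm6 lists were used. Per the file headers of the text deposited with the samples, each replicate list was made from that replicate's alignments with a control, the combined list from both, and the reproducible list by irreproducible discovery rate. No source used here names the aligner, peak caller, read depth or the unit of the deposited signal (column 7). Column 9 of the deposited lists holds −log10 of the q-value, converted here to q. The summit offset, another column the authors deposited, was added to the region start. Chromatin was sonicated, with a size range of 200 to 800 in the labels, which state no unit. The control library was not analysed here.

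Summits were assigned with Python 3.11.15 and pandas 2.3.3 to every gene whose body held them or with a TSS within 1 kb, so that 1 region can count for several genes. Distances are to the nearest TSS of the gene. Regions of different lists were taken as one locus where they overlapped. Genes missing from a replicate list were set to its lowest signal for class means. Motifs and promoters were read from the RefSeq assembly of dm6 at Ensembl starts. The scripts were tested on simulated data. No test across genes was made, because 1 group holds no comparison of conditions. The 10 genes, the other chaperone genes and the motifs were chosen with earlier results of these data known. Every one of the 10 is named, with genes sharing their promoters, genes of the 67B interval and the promoter-bound genes of the wider list. Of that list l(2)tid, Hop and CHIP matched no single gene, and Hsp110 and CG4456 were matched through RefSeq synonyms. Alternatives were other windows, whole-region overlap, stricter lists, each replicate alone and the nearest TSS.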

Additional observations from a re-analysis of the deposited data

How the results depend on the processing

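A count is taken as unmoved within 1.5 times its value. The strongest signal of each gene was not judged across lists or against ranks, whose scales differ. Both counts of bound genes among the 10 stayed at 4 to 5 under the other windows, the whole-region overlap, the stricter list, the nearest TSS and each replicate alone (4 and 4). They fell to 3 for regions among the strongest of both replicates, where all genes fell to 1616 (11.6%). In the other settings the share of all genes with a promoter peak ran from 8.63% (stricter list) to 19.2% (2 kb window). The counts of the 10 were 4 and 5 there. The 67B count was 2 under each alternative run. The constitutive count of 2 was 1 to 2 with a replicate left out, 1 being without replicate 1 (Hsp83), and 1 for regions shared by the replicates. The count of other chaperone genes ran from 4 to 8 of 51. It was 4 (7.84%) with the stricter list and for regions shared by the replicates, against 8.63% and 11.6% of all genes. Without replicate 2 it was 8 (15.7%), against 15.8% of all genes. All promoter-bound genes fell from 2199 to 1204 with the stronger 1216 peaks. The class difference of -0.03 was -0.16 to -0.13 with a replicate left out, -0.080 by log2 rank with the sign turned, 0.38 without Hsp83 and -0.41 without Hsf; the cause was not tested. In the promoter window the counts of 10, each beside its share of all promoters, were 6 for the heat shock pair (15.7%), 1 for its triple (0.421%), 3 for GAGAG (33.2%), 8 for TATA (42.3%), 6 for Initiator (52.1%) and 10 for TAAT (91.4%). Within 50 bp of the summit Initiator was at 1 and TAAT at 3 of the 10, all of these among the 5 reproducible summits. Of all reproducible summits, 18.9% and 64.1% held them. These windows differ in length. No paired analysis was possible because there is 1 group. Depth is unknown, so a region missing from a list is not shown to be unbound.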
